A study of Drosophila melanogaster with 48 samples.

Results

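The thioester-containing proteins of *Drosophila melanogaster* were followed through metamorphosis in wild type and *Ptth* mutants. The family was taken as the genes that the deposited expression table lists under the symbols *Tep1*, *Tep2*, *Tep3*, *Tep4* and *Mcr*, which gave 5 of its 17558 genes. All 5 passed the filter on low values, which left 12282 genes for testing. Poly(A) RNA had been sequenced from whole animals in 8 stages, giving 48 libraries, 3 from each genotype at every stage. The stages were early and late third-instar larvae (L3E and L3L), white prepupae (WP), pupae on 4 consecutive days (P1 to P4) and adults collected 1 to 3 h after they emerged (A0). Wild type is the line that the labels call wOB, and the mutant line is labelled ptth120BC2. The study's mutants carry *Ptth*120F2A, which it describes as a null allele, a short deletion in the last exon made by TALEN mutagenesis and backcrossed, and the labels do not themselves give that allele name. *Ptth* encodes prothoracicotropic hormone, a brain neuropeptide that drives ecdysone synthesis in the prothoracic gland. Each library was a pool of about 15 animals by the labels, and the sex of the pools was not given. Larval ages were counted from egg laying in the labels. Wild-type larvae were 72 h old at L3E and 96 h at L3L, and mutant larvae 96 h at L3E and 120 h at L3L, so the mutant L3E and the wild-type L3L larvae were of equal age.

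Thioester-containing proteins are secreted relatives of the vertebrate complement factors and the alpha-macroglobulins. In insects they are made mainly by the fat body, the counterpart of the liver, and by hemocytes, the blood cells, and several of them bind to microbes and promote their uptake or encapsulation. *Tep1* is known as a gene that JAK-STAT signaling switches on in the larval fat body, and *Tep4* is known from work on immune responses of adult flies. In cultured hemocyte-like cells, Tep2 and Tep3 promote the uptake of different bacteria. *Mcr* (Macroglobulin complement-related) stands apart because its protein lacks the thioester cysteine. It is a component of the septate junctions that seal epithelia, and it acts with the engulfment receptor Draper during autophagy in dying salivary glands.

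All 5 genes lie on chromosome arm 2L, and the table and the reference annotation (BDGP6.54.115) give them the same coordinates. *Tep1* (FBgn0041183) spans 15888640 to 15893811 on the minus strand, with 9 exons in its only transcript. *Tep2* (FBgn0041182) spans 7693727 to 7701601 on the minus strand, with 5 transcripts of 8 exons each. *Tep3* (FBgn0041181) spans 7702805 to 7710690 on the plus strand and has 15 exons. *Tep2* and *Tep3* start next to each other, 1203 bases apart, and are read away from each other. *Tep4* (FBgn0041180) spans 19548507 to 19556451 on the plus strand, with 4 transcripts of 7 or 8 exons. *Mcr* (FBgn0267488) spans 8074117 to 8082982 on the minus strand and has 7 exons. *Ptth* is on the same arm, and the 5 genes lie between 7.12 and 18.97 Mb from it. With no other line of either genotype among the libraries, loss of *Ptth* cannot be told apart from other differences between the lines. *Tep2* overlaps the end of *CG43235*, which is read from the other strand, and whether counting used the strand was not given in the sources used here.

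Libraries held 16712549 to 29784621 reads on genes. The deposited FPKM, fragment counts scaled for gene length and library size, were scaled across libraries by the authors. In every pair of replicates the libraries differed beyond sampling noise, and nothing in the labels says whether the pools came from separate cultures, so p-values measure the spread between these pools. *Ptth* itself, whose deletion need not remove its RNA, had a log2 change between genotypes of -0.36 to 0.50 over the 8 stages and passed the threshold given below at none. Salivary glue genes, a check of larval stage, summed to 1.98 to 2.93 FPKM in wild-type L3E larvae, 87.9 to 135 in mutant L3E larvae, 6370 to 6908 in wild-type L3L larvae and 10668 to 13422 in mutant L3L larvae. On this measure the mutant L3E larvae lay between the wild-type L3E and L3L larvae. In whole-animal RNA, fewer cells of a type and less RNA per cell cannot be told apart.

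*Tep4* was higher in *Ptth* mutants at each of the 8 stages, from 2.40-fold at WP to 5.85-fold at L3E (ratio of mean FPKM, 3 libraries per genotype). *Tep1* was called higher at 5 stages, with a ratio as large as 30.2 at L3E. *Tep2*, the most abundant member at most stages, and *Tep3* and *Mcr* were called at no stage. A gene was called at a Benjamini-Hochberg adjusted p under 0.05 over all tested genes and a change above 2-fold, by limma on log2(FPKM + 1) with the 6 libraries of a stage.

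**Figure D1:**
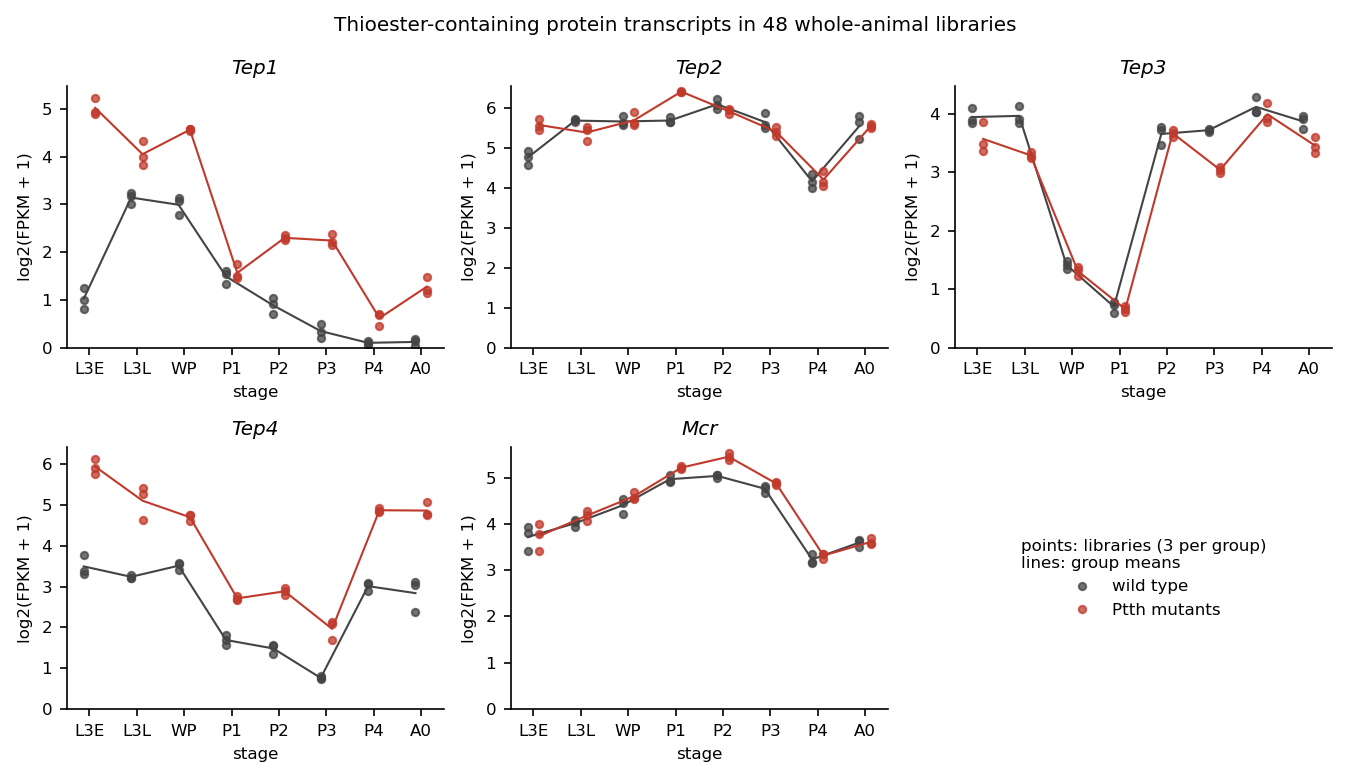
Level of each transcript, as log2(FPKM + 1) on the vertical axis, by stage on the horizontal axis, in wild type (grey) and *Ptth* mutants (red); points are libraries, 3 per group, and lines join group means. The red points of *Tep4* lie above the grey ones at each of the 8 stages and those of *Tep1* at 7 of 8, while the points of *Tep2*, *Tep3* and *Mcr* overlap between genotypes at 4, 5 and 4 stages.

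For *Tep4*, the wild-type L3E libraries measured 12.8, 9.49 and 8.93 FPKM and the mutant ones 59.4, 53.6 and 69.5 FPKM. At L3L the wild-type libraries measured 8.26, 8.31 and 8.78 FPKM and the mutant ones 41.5, 37.8 and 23.8 FPKM. The wild-type larvae sat close together, whereas the mutant L3L pools were spread, with the third the lowest of them and still above every wild-type library. At WP the wild-type libraries were at 10.9, 10.8 and 9.6 FPKM and the mutant libraries at 23.3, 26 and 25.8 FPKM. Both genotypes were then lower in the pupae of P1 to P3. At P1 *Tep4* measured 2.5, 1.96 and 2.26 FPKM in wild type and 5.37, 5.46 and 5.86 FPKM in mutants. At P2 the values were 1.96, 1.55 and 1.91 FPKM in wild type and 6.49, 5.93 and 6.78 FPKM in mutants. The lowest level came at P3, with 0.746, 0.655 and 0.692 FPKM in wild type and 3.21, 3.39 and 2.23 FPKM in mutants. *Tep4* then returned in both genotypes, and at P4 the libraries held 7.32, 7.53 and 6.4 FPKM in wild type and 28.1, 29.2 and 27.6 FPKM in mutants. Newly emerged adults held 4.19, 7.69 and 7.16 FPKM in wild type and 26.5, 25.9 and 32.4 FPKM in mutants. The libraries of the genotypes did not overlap at any of the 8 stages. How many of all tested genes did the same was not counted, and only shares at single stages are given below. The highest wild-type library of any stage (12.8 FPKM) was exceeded by all 15 mutant libraries at L3E, L3L, WP, P4 and A0.

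On the log2 scale the rise of *Tep4* was 2.45 ± 0.16 (SE) at L3E, 1.87 ± 0.21 at L3L, 1.19 ± 0.07 at WP, 1.02 ± 0.08 at P1, 1.40 ± 0.09 at P2, 1.2 ± 0.13 at P3, 1.86 ± 0.08 at P4 and 2.02 ± 0.23 at A0. All 8 passed the threshold, with adjusted p from 0.0004 at L3E to 0.0382 at A0 (limma, Benjamini-Hochberg). The values at P1 sit just inside the 2-fold limit, and the call there was lost without wild-type replicate 2 (0.96) or mutant replicate 3 (0.99), and at 0.89 after quantile normalization. The call at A0 was lost through the adjusted p in 5 of the 6 fits that left out a library, where the adjusted p was between 0.136 and 0.157 and the change between 1.92 and 2.16. The exception was the fit without wild-type replicate 1. Without the filter on low values the adjusted p at A0 was 0.0753.

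*Tep1* went through a wider range. Wild-type L3E larvae measured 1.38, 0.997 and 0.762 FPKM and mutant ones 29.8, 28.9 and 36.3 FPKM. In L3L larvae the values were 7.98, 7.09 and 8.49 FPKM in wild type and 14.9, 19.1 and 13.2 FPKM in mutants. The earlier larval stage held the lowest larval level of wild type and the highest level of mutants. At WP the libraries held 7.39, 7.78 and 5.84 FPKM in wild type and 22.8, 22.2 and 23 FPKM in mutants. At P1 the genotypes overlapped, with 1.92, 2.03 and 1.52 FPKM in wild type and 1.76, 2.35 and 1.81 FPKM in mutants. This was the only stage at which the *Tep1* libraries of the genotypes overlapped. The later pupal levels were low in both genotypes and lower in wild type. The P2 values were 0.878, 0.629 and 1.05 FPKM in wild type and 3.74, 3.92 and 4.12 FPKM in mutants. The P3 values were 0.153, 0.411 and 0.263 FPKM in wild type and 3.6, 4.18 and 3.44 FPKM in mutants. At P4 *Tep1* was nearly gone in wild type, at 0.073, 0.0406 and 0.102 FPKM, against 0.605, 0.632 and 0.378 FPKM in mutants. At A0 the wild-type libraries held 0.101, 0.13 and 0.0289 FPKM and the mutant ones 1.21, 1.32 and 1.77 FPKM.

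The log2 change of *Tep1* between genotypes was 4.00 ± 0.16 at L3E (adjusted p = 0.000148), 1.57 ± 0.11 at WP (0.0027), 1.42 ± 0.10 at P2 (0.00466), 1.90 ± 0.10 at P3 (0.000968) and 1.16 ± 0.10 at A0 (0.0228, limma, Benjamini-Hochberg). At L3L the change was 0.91 ± 0.14 (adjusted p = 0.00549) and at P4 0.52 ± 0.08 (0.0354), both under 2-fold on this scale, and at P1 it was 0.07 ± 0.11 (0.625). The added 1 shrinks changes at low levels, and with a pseudocount of 0.1 the P4 change was 1.88 and passed. The late wild-type values rest on few reads, 3 to 7 per library at P4 and 2 to 11 at A0. Over the summed reads the ratio of mutants to wild type was 7.63 at P4 (95% exact interval 4.47 to 14) and 15.6 at A0 (10.1 to 25.5), with intervals that cover counting error only. The call at A0 was lost in 5 of the 6 fits that left out a library, with adjusted p from 0.0564 to 0.134 in those 5, all except the fit without mutant replicate 3.

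**Figure D2:**
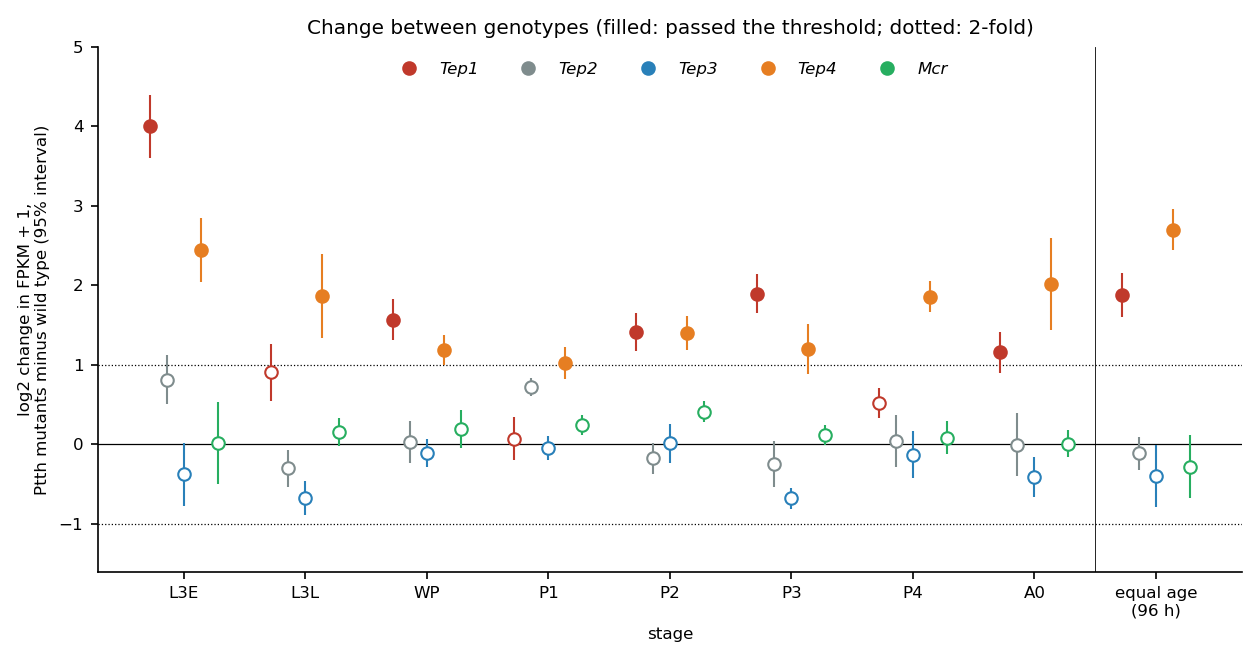
Change of each transcript between genotypes, *Ptth* mutants minus wild type on the log2(FPKM + 1) scale, with the limma estimate as a point and its 95% interval as a line, by stage and for the larvae of equal age (96 h); filled points passed the threshold and dotted lines mark 2-fold. *Tep4* is filled at all 8 stages, between 1.02 and 2.45, *Tep1* at 5, and the points of *Tep2*, *Tep3* and *Mcr* are open throughout.

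Beside all tested genes, calls of higher expression in mutants were common in larvae and rare afterwards. Of the 12282 genes, 10.4% were called higher at L3E and 8.17% at L3L, against 2 and 1 of the 5 members. The share was 0.668% at WP, 1.51% at P1, 0.578% at P2, 0.651% at P3, 0.529% at P4 and 0.261% at A0, against 2, 1, 2, 2, 1 and 2 members. The share of all genes whose 3 mutant libraries all lay above the 3 wild-type libraries was larger, at 30.4% for L3E, 31.2% for L3L, 16.3% for WP, 29.7% for P1, 19.5% for P2, 21.7% for P3, 12.2% for P4 and 8.76% for A0. These are shares at single stages. The share of all genes separated or called at all 8 stages, as *Tep4* was, or separated at 7, as *Tep1* was, was not counted. No member was called lower at any stage. Calls in either direction over all tested genes numbered 2107, 1328, 192, 292, 144, 383, 127 and 55 from L3E to A0. Of these, 1274, 1004, 82, 185, 71, 80, 65 and 32 were higher. Lower calls were thus a small part of the 12282 genes at each stage as well.

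The study defined L3E and L3L by time before pupariation, so larvae of 1 stage differed in age between genotypes. Mutant L3E larvae were therefore also compared with wild-type L3L larvae, both 96 h after egg laying. *Tep4* was 7.20-fold higher in the mutant larvae (log2 change 2.70 ± 0.10, adjusted p = 0.000234, limma), and *Tep1* 4.03-fold higher (1.88 ± 0.11, adjusted p = 0.000769). In this comparison 2.59% of tested genes were called higher and 24.1% had all mutant libraries above the wild-type ones. The change of *Tep2* was -0.11 (95% interval -0.31 to 0.10), against 0.82 when the L3E groups were compared with each other. *Tep3* was at -0.39 (-0.79 to -0.00080) and *Mcr* at -0.28 (-0.67 to 0.12), neither past the threshold. The glue genes, by contrast, were all 6 lower in the mutant larvae of equal age, with a median of -5.88.

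*Tep2* carried the highest mean FPKM of the family in wild type at all 8 stages, although at P4 its libraries overlapped those of *Tep3*. Its lowest level in both genotypes was at P4, with 15, 19.4 and 16.7 FPKM in wild type and 20.4, 15.6 and 16.7 FPKM in mutants, and the groups overlapped there. The genotypes separated most at L3E, where wild type had 29.5, 26.2 and 22.9 FPKM and mutants 42.4, 45.8 and 52.2 FPKM. At P1 wild type had 53.5, 48.7 and 49.3 FPKM and mutants 84, 85.1 and 82.7 FPKM. In both stages every mutant library was above every wild-type one. The changes were 0.82 ± 0.12 at L3E (adjusted p = 0.00426) and 0.72 ± 0.04 at P1 (0.000923, limma), below 2-fold. The mutant peak came at P1 (83.9 ± 1.2 FPKM, SD, n = 3) and that of wild type at P2 (67.4 ± 5.97 FPKM). At L3L mutants were lower, with a log2 change of -0.30 (adjusted p = 0.0478), and at the other 5 stages the adjusted p was at least 0.165.

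*Tep3* dropped to its lowest levels around pupariation in both genotypes, with 1.66, 1.55 and 1.79 FPKM at WP and 0.659, 0.715 and 0.508 FPKM at P1 in wild type. Mutants had 1.5, 1.32 and 1.61 FPKM at WP and 0.629, 0.518 and 0.586 FPKM at P1. A day later, at P2, the level was back at 12.1, 10.1 and 12.7 FPKM in wild type and 11.8, 11.1 and 12.3 FPKM in mutants. The genotypes overlapped at these 3 stages. They separated at L3L, where wild type had 14.1, 16.5 and 13.3 FPKM and mutants 8.48, 9.16 and 8.68 FPKM. They separated also at P3, with 12.4, 11.9 and 12.2 FPKM in wild type and 6.94, 7.2 and 7.53 FPKM in mutants. In both cases *Tep3* was lower in mutants, with log2 changes of -0.67 (adjusted p = 0.00306) and -0.68 (adjusted p = 0.00345, limma), below 2-fold. At P3 the male transcript list (*roX1*, *roX2* and *msl-2*) had a median change of -0.80 with none of 3 called, and whether the sex of the pools had a part in the *Tep3* value was not tested. At A0 all 3 mutant libraries were lower too (11.2, 9.82 and 9.04 against 14, 14.5 and 12.3 FPKM), with an adjusted p of 0.155 (limma). The share of all genes with every mutant library below every wild-type one was not counted. In the other direction it was 31.2% at L3L, 21.7% at P3 and 8.76% at A0. Those shares cannot stand in for it, since calls were uneven between the directions. Of all calls, 1004 of 1328 were higher in mutants at L3L, 80 of 383 at P3 and 32 of 55 at A0.

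*Mcr* rose from larvae to a broad peak in early pupae and fell before emergence. Wild type measured 9.72, 14.3 and 12.9 FPKM at L3E, 32.4, 30.6 and 32.5 FPKM at P2 and 7.95, 9.17 and 8.1 FPKM at P4. Mutants measured 9.67, 12.8 and 15 FPKM at L3E, 42.2, 40.8 and 45.2 FPKM at P2 and 9.21, 8.45 and 9.23 FPKM at P4. The P2 groups did not overlap, and the change there was 0.41 ± 0.05 (adjusted p = 0.0201). At P1 it was 0.25 ± 0.05 (adjusted p = 0.0177, limma). Both were below 2-fold, and at the other 6 stages the adjusted p was at least 0.121. The 95% interval of the change was -0.16 to 0.19 at A0 and, at its widest, -0.50 to 0.53 at L3E.

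The order of stages by mean level was the same in both genotypes for *Mcr* (P2, P1, P3, WP, L3L, L3E, A0, P4). In wild type the libraries of its neighbours P2 and P1, L3L and L3E, and L3E and A0 overlapped, as did L3E and A0 in mutants. *Tep3* was highest at P4 and lowest at P1 in both. In wild type its 6 higher stages (P4, L3L, L3E, A0, P3 and P2) overlapped from each to the next. *Tep4* in wild type ran WP, L3E, L3L, P4, A0, P1, P2, P3, where WP and L3E overlapped and P4 and A0 overlapped. In mutants it ran L3E, L3L, P4, A0, WP, P2, P1, P3, with overlap from L3L through WP. *Tep1* in wild type was highest at L3L and WP, which overlapped, and lowest at P4 and A0, which overlapped too. In mutants L3E came first, with WP and then L3L below it and no overlap among them. The ratio of the highest to the lowest stage mean in wild type was 110 for *Tep1*, 26.1 for *Tep3*, 15.0 for *Tep4*, 3.96 for *Tep2* and 3.78 for *Mcr*.

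Steps from each stage to the next were tested in 1 fit over all 48 libraries. Over 7 steps, 2 genotypes and 5 genes, 18 of 70 member values were called, 7 up and 11 down. *Tep3* fell from L3L to WP by 2.55 in wild type and by 1.98 in mutants on the log2 scale, and rose from P1 to P2 by 2.95 in wild type and 3.01 in mutants. *Tep4* fell from WP to P1 by 1.82 in wild type and by 1.99 in mutants, and rose from P3 to P4 by 2.25 and 2.91. In the same step from P3 to P4 *Tep2* fell by 1.49 in wild type and by 1.2 in mutants, and *Mcr* fell by 1.53 and by 1.56. *Tep2* then rose from P4 to A0 by 1.39 and 1.34. *Tep1* rose from L3E to L3L in wild type by 2.12, while its change in mutants was -0.97, just under 2-fold. It fell from WP to P1 by 1.5 in wild type and by 3.00 in mutants, and from P3 to P4 in mutants by 1.63. The largest adjusted p among these 18 calls was 5.52e-11 (limma).

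The share of all genes called in either direction was, for wild type, 20% from L3E to L3L, 32% from L3L to WP, 16.2% from WP to P1, 15.5% from P1 to P2, 15.3% from P2 to P3, 19.6% from P3 to P4 and 22.4% from P4 to A0. For mutants it was 15.9%, 19.7%, 22.8%, 13.3%, 12.1%, 19.1% and 23.8% over the same steps. From P3 to P4, 3 of 5 members were called in wild type and 4 of 5 in mutants, and at most 2 of 5 in any other step.

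The difference between the genotypes in each step was tested as an interaction, mutant change minus wild-type change. *Tep1* differed in 4 of the 7 steps. From L3E to L3L the difference was -3.09 ± 0.17 (adjusted p = 5.04e-17). The difference was -1.50 ± 0.17 from WP to P1 (5.9e-08), 1.34 ± 0.17 from P1 to P2 (6.59e-07) and -1.38 ± 0.17 from P3 to P4 (1.25e-06). *Tep2* differed from L3E to L3L, by -1.12 ± 0.17 (adjusted p = 1.4e-06, limma). *Tep4*, *Tep3* and *Mcr* passed in no step. For *Tep4* the 95% interval of the difference was -1.02 to -0.14 from L3E to L3L, -1.12 to -0.24 from L3L to WP and 0.22 to 1.10 from P3 to P4, so a parallel course in the genotypes is not shown. *Tep3* had intervals away from 0 in 3 steps that passed the adjusted p but not 2-fold. They were 0.27 to 0.87 from L3L to WP (adjusted p = 0.00555), -0.99 to -0.39 from P2 to P3 (0.00345) and 0.25 to 0.85 from P3 to P4 (0.0282, limma). From P2 to P3 *Tep3* fell by 0.63 in mutants (adjusted p = 4.64e-06), below 2-fold, and its change in wild type was 0.06. *Tep2* likewise differed by 0.69 from WP to P1 (adjusted p = 0.00629) and by -0.89 from P1 to P2 (0.000311, limma), both under 2-fold. Every *Mcr* difference had an adjusted p of at least 0.183. Among all genes, 13.1% differed in the first step, and then 7.82%, 2.46%, 3.01%, 2.32%, 1.25% and 1.05%.

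FPKM is scaled by gene length, so the levels of the 5 transcripts can be added. Their sum was 64.3 ± 4.44 FPKM (SD, n = 3) in wild-type L3E larvae and 163 ± 20.5 in mutant ones. The 3 mutant sums were all above the wild-type sums at that stage. In wild-type L3E larvae *Tep2* was the largest part at 40.6%, with *Tep4* at 16.1% and *Tep1* at 1.62%. In mutant L3E larvae *Tep4* was the largest part at 37.4%, ahead of *Tep2* at 28.8% and *Tep1* at 19.5%. At P4 *Tep4* made up 14.4% of the sum in wild type and 40.3% in mutants, and at A0 8.0% and 29.1%. In the pupae of P1 to P3 *Tep2* and *Mcr* together made up most of the sum in both genotypes, and at P3 the summed level was 88.8 ± 5.97 FPKM in wild type and 83.6 ± 3.30 in mutants.

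**Figure D3:**
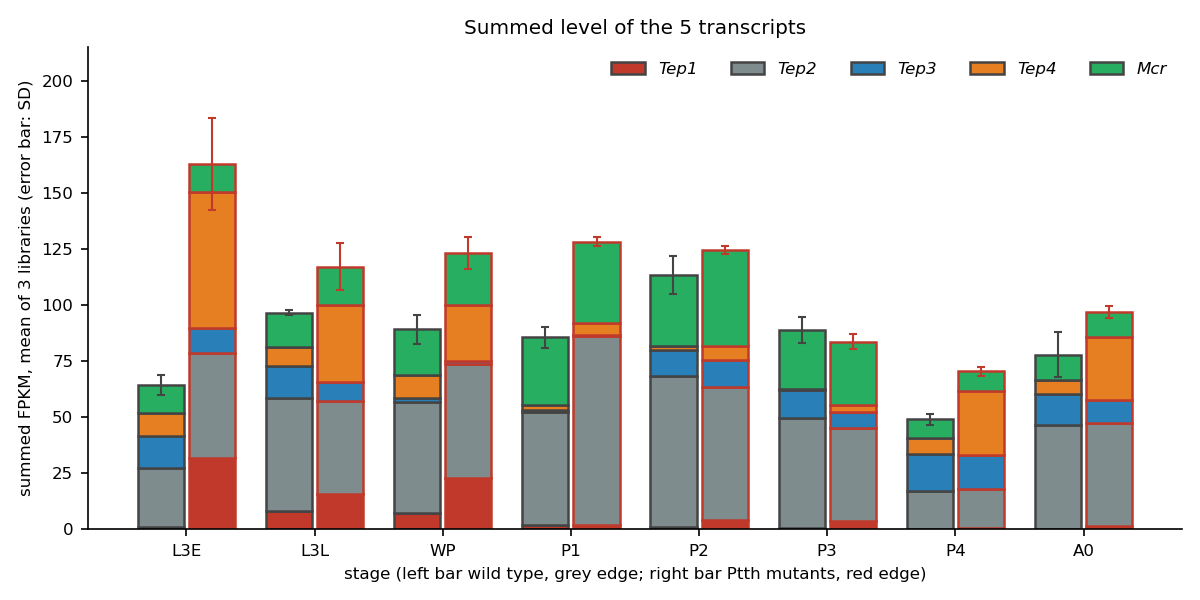
Summed FPKM of the 5 transcripts (vertical axis, mean of 3 libraries, error bar SD) by stage, split by gene; at each stage the left bar with grey edge is wild type and the right bar with red edge is *Ptth* mutants. The mutant bar at L3E reaches 163 FPKM against 64.3 in wild type, and the part of *Tep4* (orange) is larger in the mutant bar at each stage.

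Fat body, hemocyte and signaling genes were read beside the family, from lists chosen with earlier results of these data known. Of 8 plasmatocyte markers, genes of the main phagocytic blood cell such as *Hml* and *NimC1*, none was called at any stage or at equal age. Their median change was between -0.10 and 0.05 from L3L on, and 0.70 at L3E, where all 8 were above 0. At equal age all 8 were below 0, with a median of -0.25. Their summed level was 99.5 to 107 FPKM in wild-type and 153 to 165 FPKM in mutant L3E larvae. At P4 it was 107 to 120 FPKM in wild type and 96.8 to 110 FPKM in mutants, and at A0 97.4 to 119 and 98.3 to 114 FPKM. *Tep4* was 4.00-fold and 4.45-fold higher in mutants at P4 and A0, and the part of blood cells in its values was not tested. Larval fat body products, the storage proteins and their relatives, were called higher in 6 of 7 cases at L3E, where *Fbp2* was up by 11.17, *Lsp2* by 8.61 and *Lsp1alpha* by 8.38 on the log2 scale. Their part in the *Tep1* and *Tep4* values at L3E was not tested. At equal age 1 of these 7, *Fbp1*, was called, lower in mutants (-3.64), and at P4 and A0 none was called, with medians of -0.23 and -0.61.

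Of 9 listed JAK-STAT pathway genes 7 were tested. The only call in 8 stages was *Socs36E*, the feedback inhibitor of the pathway, lower at L3E with a log2 change of -2.28 (adjusted p = 0.00142). It had 32.0 to 57.6 FPKM in wild-type and 6.58 to 7.76 FPKM in mutant L3E larvae. *Tep1* was higher in those mutant larvae, and the part of this pathway in its values was not tested. At equal age none of the 7 pathway genes was called. Of 6 tested Turandot genes, secreted peptides of the stress response, 1 was called higher at L3E, 1 at P1, 3 at P4 and none at the other 5 stages or at equal age. All 6 were above 0 at P4 (median 1.25) and at A0 (1.08), and 5 of 6 at WP (1.47). Only 1 of 6 was above 0 at L3L (-0.01) and at P2 (-0.56). *Tep4* was higher in mutants at all of these stages, and the part of the Turandot genes in its values was not tested. Of 20 tested septate junction genes, among which *Mcr* belongs by function, none was called at any stage or at equal age, and at P2 17 of the 20 were above 0 with a median of 0.19, beside 0.41 for *Mcr* and 0.01 for all tested genes. Of 13 tested Nimrod, Draper and scavenger receptor genes, which mediate engulfment, the only call in 8 stages was *NimB2*, higher at P1 by 1.09, and *NimC2* was lower at equal age (-2.88). The crystal cell and lamellocyte list had 1 of 4 tested genes higher at L3E (*PPO2*), 1 lower at L3L (*PPO1*) and 2 lower at WP, and the list had 1 call at each of P2, P3, P4, A0 and equal age and none at P1.

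**Figure D4:**
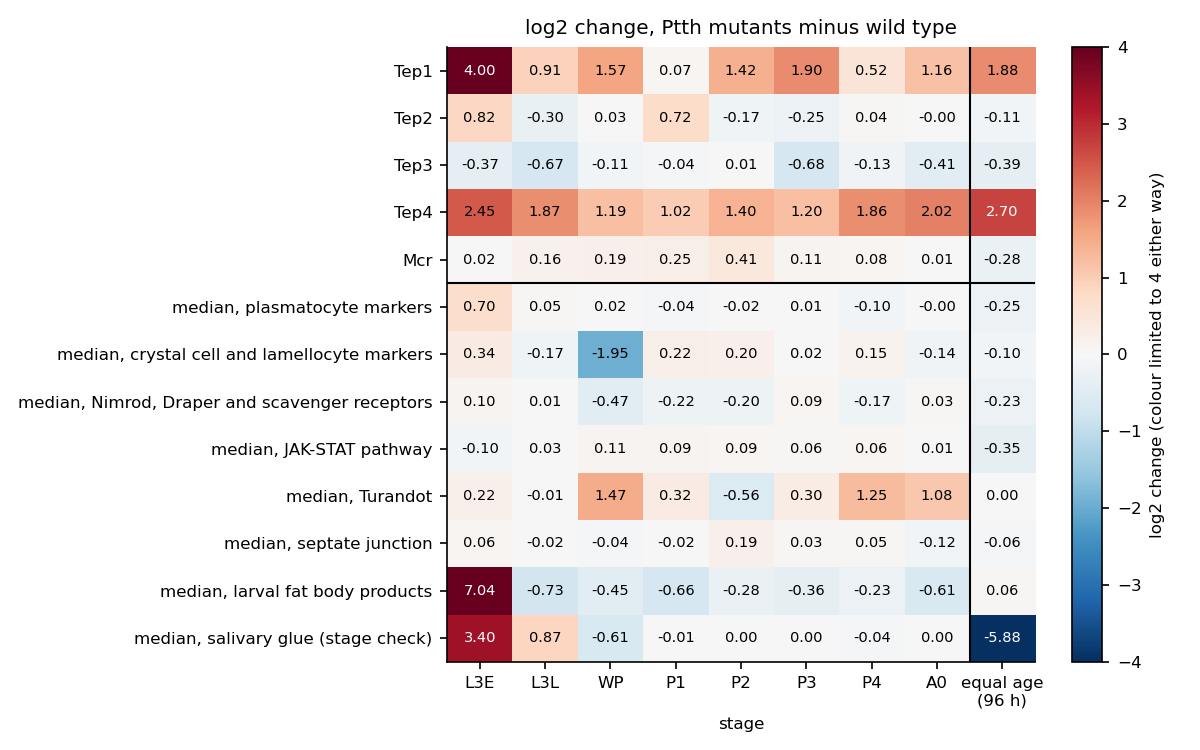
Log2 change, *Ptth* mutants minus wild type, by stage and for larvae of equal age (columns), for the 5 members (upper rows, limma estimates) and as the median over the tested genes of 8 lists (lower rows); red is higher and blue lower in mutants. *Tep4* is red in every column. The plasmatocyte, JAK-STAT and septate junction medians lie between -0.35 and 0.19 outside the plasmatocyte value of 0.70 at L3E. The larval fat body median is 7.04 at L3E, and the crystal cell and lamellocyte median is -1.95 at WP. The Turandot median is 1.47 at WP, 1.25 at P4 and 1.08 at A0, and -0.56 at P2.

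The genes around the members were read in the same fits, since *Ptth* lies on the same arm. Within 100 kb of *Tep4*, 32 neighbouring genes were tested. At L3E and at L3L 1 was called higher (3.12%, against 10.4% and 8.17% of all tested genes) and 1 lower. At WP 1 was higher (3.12% against 0.668%) and at P1 2 were (6.25% against 1.51%). At equal age 1 was lower. None was called at P2, P3, P4 and A0, where *Tep4* was the only called gene in its window. Few genes anywhere were called higher at those stages, 0.261% to 0.651% of all tested. The nearest gene downstream, *Tep5*, lies 1596 bases past the end of *Tep4* by the table's coordinates, carries the same family domain tag in the table, and had at most 0.259 FPKM in any library. Within 100 kb of *Tep1*, 7 of 21 neighbours were called higher at L3E (33.3%, against 10.4% of all tested genes), 6 at L3L (28.6% against 8.17%), 3 at WP (14.3% against 0.668%) and 3 at P1 (14.3% against 1.51%). At P3 2 were higher and 3 lower, at P4 1 was higher, and none was called at P2, A0 or equal age. Their changes at L3E were between 1.02 and 1.63, against 4.00 for *Tep1*. A raised share was not particular to *Tep1*. Around *Tep2* and *Tep3*, whose windows largely coincide, 9 of 28 (32.1%) and 9 of 29 (31%) were called higher at L3E. At equal age 5 were called higher in each window (17.9% and 17.2%, against 2.59% of all tested genes). Around *Mcr* 1 of 31 was called higher at L3E (3.23%).

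**Figure D5:**
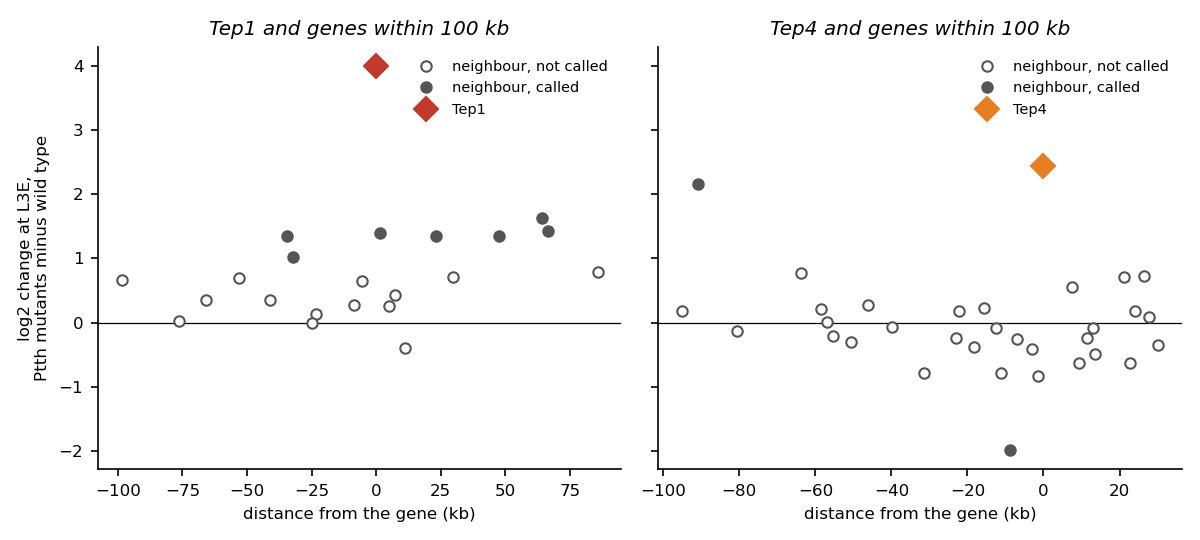
Log2 change at L3E, *Ptth* mutants minus wild type, of the genes within 100 kb of *Tep1* (left, 21 tested neighbours) and *Tep4* (right, 32), against distance from the gene in kb, negative towards lower coordinates; diamonds are the family members, filled circles called neighbours and open circles the others. *Tep1* (4.00) and *Tep4* (2.45) have larger changes than any neighbour shown.

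Across the 16 group means of log2(FPKM + 1), the closest pair within the family was *Tep2* and *Mcr* (Pearson r = 0.76), followed by *Tep1* and *Tep4* (0.58), and the other 8 pairs lay between -0.56 and 0.31. *Tep2* and *Tep3*, which share an intergenic interval, had r = -0.49. Among all tested genes outside the family, those most like *Tep1* over the 16 means were *CG43124* (0.90), *Pcp* (0.90), a pupal cuticle protein gene, and *CG8963* (0.88). For *Tep2* they were *Abi* (0.89), *CG43163* (0.87) and *CG13604* (0.87). *Tep3* ran with *atilla* (0.95), the lamellocyte surface antigen that is also in the crystal cell and lamellocyte list, *Rh50* (0.95), a Rhesus-type ammonium transporter gene, and *Ric* (0.94). *Tep4* ran with *CG2064* (0.92), *Cyp12d1-p* (0.89), a cytochrome P450 gene, and *Oatp58Da* (0.88), an organic anion transporter gene. *Mcr* ran with *CG31195* (0.98), *CG43618* (0.97) and *stan* (0.97), the planar polarity cadherin. These are descriptions over means that share stages and libraries.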

How the data were processed

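Whole-animal poly(A) RNA-Seq was analysed from the authors' table of FPKM, 17558 genes in 48 libraries, with 0 sample columns unmapped. The study's methods name Fastx for filtering, STAR as aligner, htseq-count for counting and DESeq2 for testing, whereas the submitters' processing notes name HISAT2 2.0.5, featureCounts 1.5.0-p3 and BDGP6, and which of these made the table was not given in the sources used here. Deposited FPKM times gene length and 1 size per library gave whole reads (100% within 0.001 read). That size was in constant proportion to median-of-ratios size factors computed from those reads, so the authors' values carry that scaling. The implied library size was 0.63 to 1.515 times the library total. Depth was 16712549 to 29784621 reads, and chi-square per gene between replicates 4.545 to 77.7.

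Genotypes were compared with limma 3.58.1 in R 4.3.3 (lmFit, eBayes with trend, two-sided) on log2(FPKM + 1), 6 libraries per fit, for the 12282 genes with a maximum of at least 3 FPKM, with Benjamini-Hochberg adjustment. Genes were called at an adjusted p under 0.05 and over 2-fold. Steps and interactions came from 1 fit over 48 libraries. The comparison of genotypes within a stage was tried on simulated counts at L3E, P1 and A0. The fit over 48 libraries was not. Same-numbered replicates did not deviate together throughout any stage (0 of 8 stages with all 3 correlations above 0.1, range -0.43 to 0.47). The numbers were not taken as pairs, though this check cannot exclude shared handling of some of them. Of listed genes, *aka* and *TotE* were not matched, and 17252 identifiers were found in the annotation, 16959 at the same coordinates. The genes named are the 5 members, for each the 3 tested genes outside the family with the highest correlation, and of each list up to 3 of the genes with the largest called change. *Tep5*, *CG43235*, *Hml*, *NimC1* and *Ptth* were named after their values were seen. The members and lists were chosen with earlier results of these data known. Alternatives were a pseudocount of 0.1, other filters, quantile normalization, limma-voom on recovered reads, a 1.5-fold threshold, a shared fit, a replicate block and leaving out each library. Figures were drawn with matplotlib 3.10.9, and tables built with pandas 2.3.3 and numpy 2.4.6 under Python 3.11.15.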

Additional observations from a re-analysis of the deposited data

Results flagged for a closer look

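The change from one stage to the next differed between the genotypes, by the interaction test of limma, for *Tep1* in 4 steps and for *Tep2* in 1. For *Tep1* the mutant change minus the wild-type change was -3.09 from L3E to L3L, -1.50 from WP to P1, 1.34 from P1 to P2 and -1.38 from P3 to P4 on the log2(FPKM + 1) scale. For *Tep2* it was -1.12 from L3E to L3L. The L3E to L3L differences touch larvae whose age from egg laying differed by a day between genotypes, and stage and age cannot be told apart in them.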

How the results depend on the processing

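Of 13 called genotype values over 182 alternatives, 164 stayed called and none turned, and the calls lost were of *Tep4* at WP, P1 and A0 and of *Tep1* at A0. Both calls at equal age held in all 18 alternatives and all 18 step calls in 144. *Tep4* was called at 6 to 8 of the 8 stages when a library was left out and *Tep1* at 4 to 6. With the replicate block *Tep4* was called at 6 stages and *Tep1* at 4, since the adjusted p became 0.0514 for *Tep4* at WP, 0.184 at A0 and 0.19 for *Tep1* at A0, and the block changed no other member's call. At A0 it cut the genes called from 55 to 1, at WP from 192 to 64, at P4 from 127 to 32 and at P2 from 144 to 88. Nothing in the labels says whether equal numbers mark shared handling, and single correlations between same-numbered replicates reached 0.47. The calls lost under the block therefore stand as a limit on those values. At a 1.5-fold threshold *Tep2* and *Tep3* were each called at 2 stages. With a pseudocount of 0.1 *Tep1* was called in 5 wild-type and 4 mutant steps and *Tep3* in 4 mutant steps, where the smaller pseudocount widens changes of low values, and with quantile normalization *Tep2* was called in 4 mutant steps. Quantile normalization also took *Tep4* at P1 (0.89), *Tep1* at A0 (0.90) and the *Tep2* difference from L3E to L3L (-0.86) under 2-fold. The cause was not tested. Leaving out a replicate number gave 2 to 4 mutant steps and 0 to 1 interaction for *Tep4*, the 4 without replicate 2 and the 1 without replicate 3.

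Signs turned only for values near 0 that were not called. *Tep1* at P1 was -0.087 with quantile normalization and -0.016 to 0.13 without single libraries. *Tep2* at A0 was 0.041 with quantile normalization, 0.0015 with limma-voom on recovered reads and -0.17 to 0.12 without single libraries. *Tep2* ran from -0.071 to 0.094 at WP and from -0.064 to 0.14 at P4, *Tep3* from -0.079 to 0.074 at P2, and *Mcr* from -0.13 to 0.18 at L3E and from -0.036 to 0.040 at A0. Interaction alternatives were chosen after seeing the data. Counts of all genes called also moved. Leaving out single libraries gave 44 to 120 calls at P2 against 144, 100 to 994 at P3 against 383, 54 to 94 at P4 against 127, 6 to 44 at A0 against 55, 110 to 155 at WP against 192 and 252 to 449 at P1 against 292. Genes called higher then numbered 20 to 69 at P2 against 71, 43 to 104 at P3 against 80, 28 to 52 at P4 against 65 and 3 to 24 at A0 against 32, so the shares of all genes beside the members move as well. At A0 1 fit over 48 libraries called 161 genes, and at P1 limma-voom called 727. Depth limits *Tep1* from P4 on in wild type, where libraries held 2 to 11 reads of it.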

Other observations

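Other immune genes of the lists moved in their own ways. *PPO1*, a prophenoloxidase of crystal cells, was lower in *Ptth* mutants at L3L (log2 change -2.61), WP (-4.31), P4 (-1.11) and A0 (-1.41), and it was lower at equal age too (-2.19). *PPO2*, its paralog, was higher at L3E (2.01), P2 (1.66) and P3 (1.79) and lower at WP (-3.52). At P4 *TotA* (1.05), *TotB* (1.78) and *TotM* (1.39) were called higher, as *TotA* was at L3E (3.55) and *TotZ* at P1 (1.38), all by limma. The yolk protein gene *Yp3* was lower at L3L (-3.47) and at equal age (-1.15), and of the other yolk genes none was called at any stage. Of 3 genes listed as prepupal, *ftz-f1* (-1.66) and *Edg78E* (-4.61) were lower at L3E. The list's name does not describe its levels here. The 3 summed to 40.3 FPKM at L3E, 39.5 at P3 and 1.03 at WP in wild type, and to 2.52 at L3E in mutants. None of the 3 male transcripts was called at any stage.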
